A study of Vitis vinifera with 36 samples.

Results

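The genes described here are 71 grapevine genes whose array annotation names a step of lipid, cutin or wax metabolism. They were taken from the tables of annotated genes that came with the study, in which 4118 probes carry an annotation. A gene was a member when its annotation contained lipase, lipid transfer, oleosin, ketoacyl, acyl-CoA, acyl carrier, fatty acid, desaturase, GDSL, wax or phospholipase, and no annotation with oleosin was found. RNA from ovules and developing seeds was hybridised to a custom 1-colour Agilent array with 26688 probes, on 36 arrays. Red Globe (RG) and Italia (IT) are seeded varieties, and Thompson Seedless (TS) is a seedless variety in which seed development stops after fertilisation. The seed coat regulator VviAGL11 is homozygous for the wild-type allele in RG and heterozygous for a mutated allele in TS. For IT the study reports the wild-type coding sequence. It does not name IT among varieties with the mutated form or with a hybrid form that shares part of its changes. Each was sampled pre-bloom (S1), post-bloom (S2), at pea size (S3) and at veraison (S4), the onset of ripening, with 3 arrays for each variety and stage. All vines grew in the same collection without hormone treatment, and a sample pooled ovules or seeds of several flowers or berries. TS alone stood for the seedless varieties, since Autumn Royal was not analysed here.

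Plants make fatty acids in plastids, where acyl carrier proteins hold the growing chain and stearoyl-ACP desaturases add the first double bond. Acyl-CoA synthetases activate the chain after export, and it is then built into membrane or storage lipid, elongated by ketoacyl-CoA synthases or broken down in peroxisomes. Very long chains feed alkanes and wax esters of the cuticle, the water barrier that also lines the ovule and the seed coat. GDSL lipases are a large family of esterases, some of which assemble cutin in tomato. Lipid transfer proteins carry lipids through the cell wall.

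The members held 13 GDSL lipases, 9 lipid transfer proteins, 9 genes of very-long-chain elongation, 7 acyl carrier proteins or fatty acid synthase subunits, and 7 genes of fatty acid activation, oxidation or glycerolipid assembly. A further 7 were other lipases, 6 were phospholipases, 6 were fatty acid desaturases and 5 were genes of alkane and wax ester formation. The remaining 2, an allene oxide cyclase and a zeta-carotene desaturase, matched the wording but belong to jasmonate and carotenoid synthesis. Levels are log2 signals relative to the 75th percentile of the array, so 0 is the signal below which 75% of the probes lay. Testing required a probe to exceed background clearly on each of the 3 arrays in 1 group or more, and 70 members met this. The exception was a wax synthase (VIT_15s0046g00680), which was above background on 4 arrays in all. A difference was called when its adjusted p was under 0.05 and its log2 size over 1.

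Most members were selected on measured values before the annotation was read: the tables list genes that differed between seeded and seedless varieties at S1 or S2, or between RG and TS at S3. Only 12 came from a list cut by annotation alone. The 31 members of the RG and TS list at S3 came from a stretch of genes higher in RG, and on the present scale their RG minus TS differences at S3 ran from 1.09 to 5.63, the highest of them against TS arrays not above background, with a median of 1.45. Among the 39 other tested members the highest such value was 0.78. The S2 list leaned the other way: of its 27 tested members outside the S3 list, 25 had RG minus TS values at S2 below 0, with a median of -0.67. These values chose the members. Counts at S1, S2 and S3 therefore cover members that a list without that stage brought in, and are given again without those that a list of the same stage also held, whose values at that stage are a description. No list rested on the S4 arrays.

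The array's 75th percentile ran from 100.4 to 1359 intensity units, and 38.7% to 90.1% of probes were well above background. The lowest values of both belonged to IT S1 replicate 3. RG and TS arrays shared 7 slides and the IT arrays filled another 5, so variety and slide cannot be told apart in any comparison with IT. VviAGL11, an ovule and seed coat regulator, was above background on all 36 arrays. So was ASR2, a probe of berry flesh and skin, so detection alone does not tell these tissues apart. P-values measure the spread between arrays.

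The first question was which of these genes differed between the seeded RG and the seedless TS at veraison. In RG, a delta-7 desaturase was 36.9-fold and a GDSL lipase 33.2-fold higher, while other GDSL lipases, ketoacyl-CoA synthases and a long-chain acyl-CoA synthetase were lower. Of 70 tested members, 21 were called (30.0%), against 16.9% of all 23068 tested probes. Higher in RG were 8 members (11.4%, all probes 6.93%) and lower were 13 (18.6%, all probes 9.96%). The median difference was -0.34, against -0.05 over all probes. Most members had been listed because they differed between varieties at an earlier stage. The part of that selection in these shares was not tested. All 21 called members had the same sign on each of the 3 slides that held an RG and a TS array at S4, as did 22 of the 49 that were not called. The same arrays gave the calls, so these signs are a description and no separate test. In bulk tissue, fewer cells of a type and less RNA per cell cannot be told apart.

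In IT the balance was the other way. Of 70 members, 36 differed from TS at S4 (51.4%, all probes 29.2%), with 24 higher (34.3%, all probes 15.9%) and 12 lower (17.1%, all probes 13.3%). The median was 0.48, against 0.16 over all probes. The same selection at earlier stages lies behind these shares, and its part was not tested. RG and IT are set against the same TS arrays here, and each comparison is given by its own values. Among the 27 members that only the RG and TS list at S3 had brought in, 14 were higher in IT than in TS at S4 and 0 were lower, while in RG 1 was higher and 3 were lower than in TS.

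**Figure D1:**
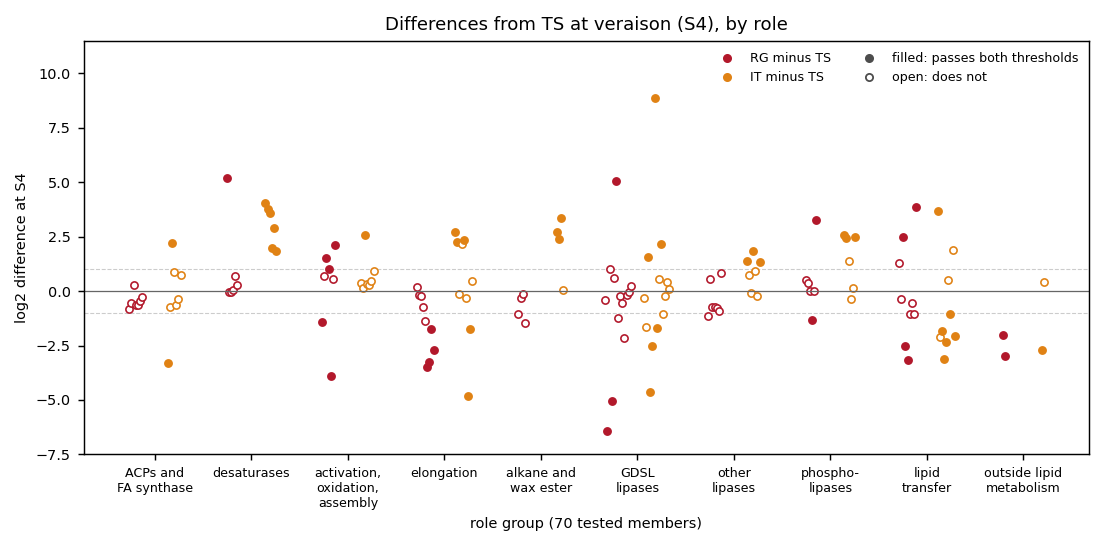
Log2 difference at veraison (vertical axis) of each tested member, RG minus TS left and IT minus TS right within each role group. Filled points pass both thresholds. All 6 desaturases are filled for IT and 1 for RG, and in the elongation group the 4 filled RG points lie below 0.

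The desaturases set the 2 seeded varieties apart. The largest positive difference between RG and TS at S4 among all members was that of VIT_09s0002g06970, annotated as a palmitoyl-monogalactosyldiacylglycerol delta-7 desaturase, an enzyme that acts on plastid galactolipid in Arabidopsis. At S4 it stood at 4.37, 4.13 and 4.74 in RG and at 3.10, 3.10 and 3.62 in IT, against -0.54, -0.92 and -0.91 in TS. No array of either seeded variety overlapped with TS. The log2 difference was 5.21 for RG (SE 0.26, adjusted p = 5.6e-13) and 4.06 for IT (SE 0.26, adjusted p = 1.3e-11). At S1, a stage whose list also held this gene, the RG minus TS value was -1.55, given as a description. Its means in RG from S1 to S4 were -3.69 ± 0.12, -2.96 ± 0.25, -0.78 ± 0.12 and 4.42 ± 0.31 (SD, n = 3 each), and in TS they stayed between -2.29 and -0.79.

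The other 5 desaturases were called for IT (all probes 29.2%) and not for RG (all probes 16.9%) at S4. Stearoyl-ACP desaturases make oleoyl-ACP in the plastid, and 4 members with this kind of annotation are near neighbours by locus number. VIT_05s0094g00560 had 0.08, 0.53 and -0.33 in IT, against -2.68, -2.08 and -5.67 in TS, a log2 difference of 3.57 (SE 0.62, adjusted p = 6.9e-05). The IT arrays all lay above the TS arrays. For VIT_05s0094g00740 the difference was 2.91 (SE 0.44), for VIT_05s0094g00730 it was 1.97 (SE 0.36), and for VIT_05s0094g00750, annotated as a stearoyl-CoA 9-desaturase, it was 1.86 (SE 0.42). In RG the same 4 differed from TS at S4 by -0.04, 0.70, 0.04 and 0.28, in that order, and none of the 4 passed. Without TS S4 replicate 1, the value for VIT_05s0094g00740 was 1.34 in RG, with an adjusted p of 0.028.

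The endoplasmic reticulum omega-6 desaturase VIT_06s0004g01250, of the family that turns oleate into linoleate, was at -1.17, -1.18 and -5.57 in IT at S4. In TS it was at -7.09, -7.60 and -4.52, and it was above background on 2 of 3 IT arrays and 1 of 3 TS arrays. The difference of 3.77 (SE 0.92, adjusted p = 0.0024) became 5.23 without IT S4 replicate 3. That array also stood apart in the storage protein probes. The 11S globulin GSVIVT01028341001 was at -1.21 there and at 8.97 and 8.82 on the other two IT S4 arrays, while the legumin GSVIVT01022901001 was at 1.44 there and at -0.50 and -0.64 on the others, and the globulin-like GSVIVT01022907001 at 1.58 against -0.45 and -0.55. Without it all 6 desaturases were still called for IT. In RG and TS the gene fell between S1 and S4, by 3.35 and 3.26 on the log2 scale.

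**Figure D2:**
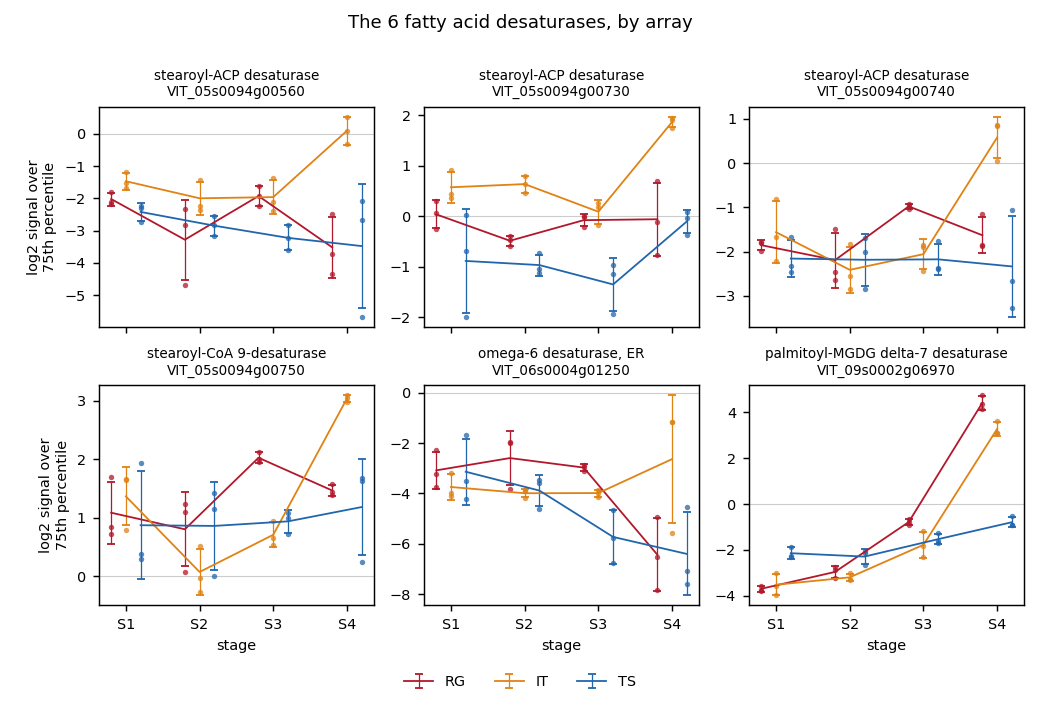
Log2 signal over the 75th percentile (vertical axis) of the 6 desaturases at each stage; points are arrays, lines join group means and bars are SD (n = 3). At S4 the IT mean is above the TS mean in all 6, with 1 IT array of the omega-6 desaturase low, whereas for RG the delta-7 desaturase alone separates from TS, at a mean of 4.42.

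Elongation to very long chains starts with a ketoacyl-CoA synthase, which condenses the acyl chain with malonyl-CoA. Of the 9 elongation genes, 4 were lower (all probes 9.96%) and 0 higher (all probes 6.93%) in RG than in TS at S4. The group median was -1.37, and the other 5 did not pass. VIT_14s0006g02990 had -5.61, -4.52 and -5.77 in RG and -2.28, -1.93 and -2.17 in IT, against -2.19, -0.93 and -2.28 in TS. The RG arrays lay below all others, only 1 of them above background, and the difference from TS was -3.50 (SE 0.36, adjusted p = 4.3e-08). IT did not pass, at -0.32 (SE 0.36). This gene, from the list cut by annotation alone, was also lower in RG at S3, by -2.31 (SE 0.36, adjusted p = 1.7e-05). At S2 the difference was -1.33 (SE 0.36, adjusted p = 0.025), a call lost without RG S2 replicate 1 (adjusted p = 0.13), RG S2 replicate 2 (0.099), TS S2 replicate 1 (0.13) or TS S2 replicate 2 (0.072), and with the replicate block within the 6 arrays (0.077).

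VIT_13s0067g03890 was lower in both seeded varieties at S4. It had -1.09, -1.36 and -1.49 in RG and -3.22, -3.44 and -1.94 in IT, against 1.37, 2.38 and 2.05 in TS. The differences were -3.25 for RG (SE 0.60, adjusted p = 0.00023) and -4.80 for IT (SE 0.60, adjusted p = 7.4e-07), and neither variety overlapped with TS. VIT_04s0008g02250 was likewise lower in both, by -1.74 in RG (SE 0.46) and -1.76 in IT (SE 0.46). VIT_04s0008g04710 was not above background on any RG array at S4 and was above it on all 3 TS arrays. It was at least 4.96-fold lower in RG (adjusted p = 0.00057), the bound taken from the lowest signal called above background, while IT differed from TS by 0.49 (SE 0.54). After normexp background correction the RG difference was -0.68 and no longer passed (adjusted p = 0.295).

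Other members of the elongation group were higher in IT than in TS at S4, among them VIT_16s0050g00830 at 2.36 (SE 0.58, adjusted p = 0.0024). In RG its value was -1.37 (adjusted p = 0.10), which passed without RG S4 replicate 3 (-2.28, adjusted p = 0.002). The neighbours VIT_16s0022g01570 and VIT_16s0022g01580, named after their values were seen, were above background on all arrays at S1 and S2, except for 1 IT array of the second, and on no RG or TS array at S4. At S3 the RG arrays of VIT_16s0022g01570 were at -7.58, -8.75 and -7.62, none above background, against -5.34, -3.89 and -3.84 in TS, and the gene was at least 5.83-fold lower in RG (adjusted p = 0.00015). Its neighbour, above background on 0 RG arrays and 1 TS array at S3, was at least 1.44-fold lower (adjusted p = 0.019), which did not pass without RG S3 replicate 1 or 2 or TS S3 replicate 2 or 3 (adjusted p from 0.061 to 0.076). The ketoacyl-CoA reductase VIT_02s0025g03380, also named after its values were seen, had log2 differences from TS of -0.25 in RG and -0.13 in IT at S4, neither called.

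CER1 is required for alkane formation in Arabidopsis, and 3 members carry this name. VIT_15s0021g00050 had its highest mean at S3 in RG, with -0.95 ± 0.79 at S1, 3.71 ± 0.29 at S3 and -0.78 ± 0.32 at S4. TS had 0.57 ± 0.35 at S1, 3.01 ± 0.11 at S3 and 0.29 ± 0.31 at S4 (SD, n = 3 each). In IT the level at S4 was 3.01 ± 0.96, next to 2.99 ± 0.45 at S3. IT was higher than TS at S4 by 2.72 (SE 0.52, adjusted p = 0.0002). Its neighbour VIT_15s0021g00040 was higher by 2.39 (SE 0.65, adjusted p = 0.0059), and VIT_15s0045g01600, above background on 3 IT arrays and 0 TS arrays, was at least 5.89-fold higher (adjusted p = 0.002).

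RG minus TS at S4 was -1.07 for VIT_15s0021g00050 and -0.32 for VIT_15s0021g00040, and neither was called. VIT_15s0045g01600 was above background on 0 RG and 0 TS arrays at S4, so these arrays give no difference for it. With the replicate number as a block within the 6 arrays compared, the first passed (-1.07, adjusted p = 0.040). The wax synthase VIT_03s0063g00120, of the family that joins fatty alcohols to acyl chains, had -3.13, -2.46 and -3.12 in RG and -0.75, -0.85 and -2.49 in IT at S4, against -0.93, -1.08 and -2.24 in TS. The RG arrays lay below the TS arrays, but the difference of -1.49 did not pass (adjusted p = 0.14), and IT was at 0.05 (SE 0.68). At S3 it was above background on 0 RG arrays and 1 TS array, and at least 1.77-fold lower in RG (adjusted p = 0.035), a call that was lost without any 1 of the 6 arrays (adjusted p from 0.063 to 0.11).

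**Figure D3:**
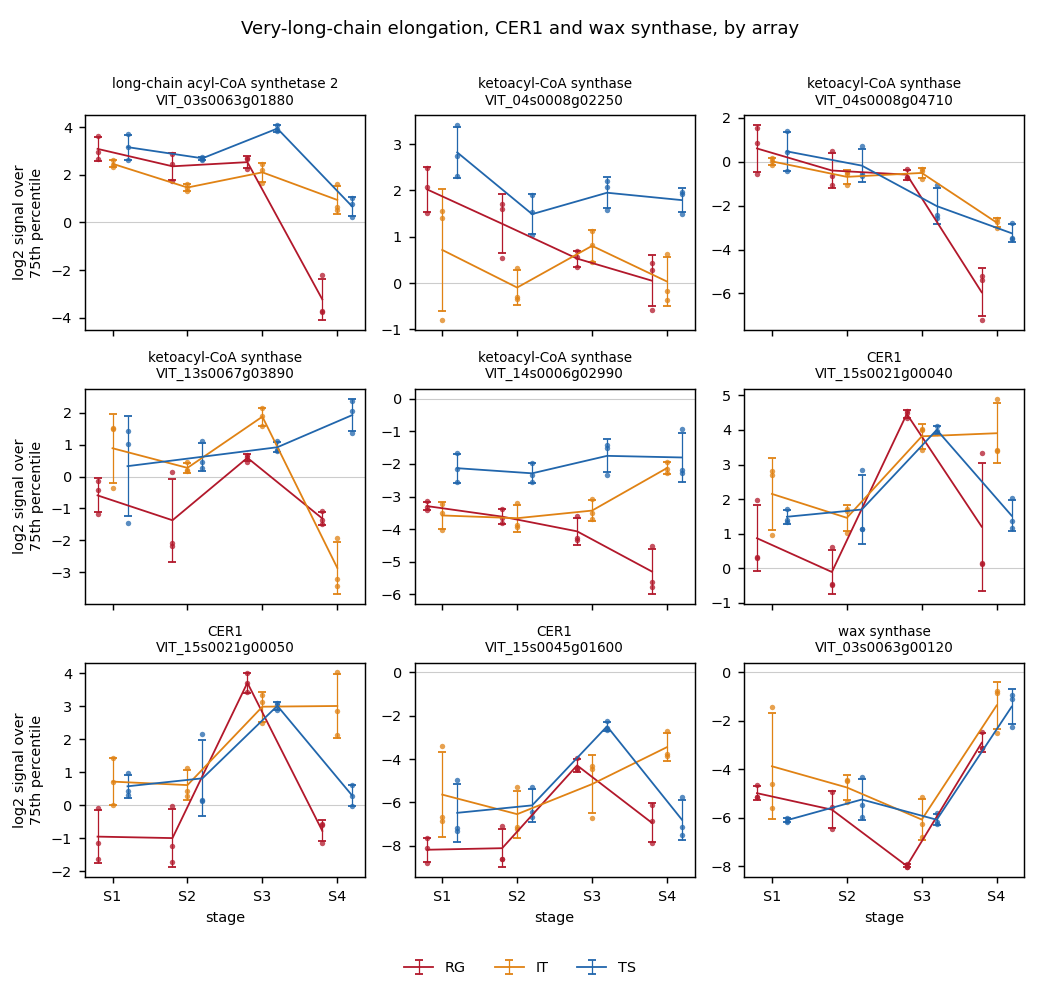
Log2 signal over the 75th percentile of a long-chain acyl-CoA synthetase, 4 ketoacyl-CoA synthases, 3 CER1 genes and a wax synthase at each stage; points are arrays, lines join means and bars are SD (n = 3). The means of the 3 CER1 genes are lower at S4 than at S3 in RG and TS, and at S4 the IT mean is the highest of the 3 varieties for each.

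Among the 7 genes of activation, oxidation and assembly, 3 were higher (all probes 6.93%) and 2 lower (all probes 9.96%) in RG than in TS at S4. Long-chain acyl-CoA synthetase 2 (VIT_03s0063g01880), which acts in cutin synthesis in Arabidopsis, had -3.77, -3.70 and -2.23 in RG and 0.67, 0.54 and 1.63 in IT, against 0.21, 1.01 and 0.78 in TS. RG stood apart from both other varieties, at -3.90 from TS (SE 0.37, adjusted p = 1.0e-08), and IT at 0.28 did not pass. Its level in RG was 3.09 ± 0.50, 2.36 ± 0.56, 2.53 ± 0.24 and -3.23 ± 0.87 from S1 to S4 (SD, n = 3 each). At S3 it was already lower in RG than in TS by -1.41 (SE 0.37, adjusted p = 0.0046).

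A second acyl-CoA synthetase, GSVIVT01033214001, crossed over between the stages. At S3 it was at 1.48, 1.51 and 0.86 in RG, against 3.04, 3.77 and 3.83 in TS, a difference of -2.26 (SE 0.31, adjusted p = 3.0e-06). At S4 it was at 4.90, 4.71 and 4.40 in RG, against 2.20, 2.57 and 2.86 in TS, a difference of 2.13 (SE 0.31, adjusted p = 1.0e-05). Both times the arrays of RG and TS did not overlap. Both thiolases annotated as PED1, which in Arabidopsis cut acyl-CoA in peroxisomal beta-oxidation, were higher in RG at S4, and both calls were fragile. VIT_07s0005g05610 differed by 1.51 (SE 0.43), but by 0.81 (adjusted p = 0.15) without TS S4 replicate 3, and the adjusted p was 0.16 with the replicate block within the 6 arrays. VIT_05s0051g00720 differed by 1.03 (SE 0.29), but by 0.81 (adjusted p = 0.073) without TS S4 replicate 3 and by 0.87 (adjusted p = 0.076) without RG S4 replicate 1.

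The acyl-CoA binding protein VIT_02s0033g01330, a carrier of activated chains, was lower in RG at S4 by -1.41 (SE 0.36, adjusted p = 0.0053). Without RG S4 replicate 3 or TS S4 replicate 1 the difference was -1.06 either way and no longer passed (adjusted p = 0.052 and 0.059). At S3 it was also lower in RG, by -1.14 (SE 0.36), but not without RG S3 replicate 1 (adjusted p = 0.075) or TS S3 replicate 2 or 3 (0.066 and 0.051). The acyltransferase VIT_03s0063g02080, which adds the second chain in glycerolipid synthesis, and the synthetase VIT_06s0004g00750 differed from TS at S4 by 0.56 and 0.71 in RG, and neither was called.

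None of the 7 acyl carrier proteins and synthase subunits was called between RG and TS at S4 (all probes 16.9%). Their differences lay between -0.81 and 0.30. At S3, where the RG and TS list also held both genes, the mitochondrial acyl carrier protein VIT_00s0259g00160 had 1.78, 1.98 and 1.96 in RG, against 0.19, -0.40 and -0.24 in TS, and ACP4 (VIT_01s0244g00030) had an RG minus TS value of 1.57. These values are a description. In IT the plastidic ketoacyl-ACP synthase VIT_11s0016g00600, which extends the chain, was higher than in TS at S4 by 2.21 (SE 0.28, adjusted p = 9.2e-07), and ACP4 was lower by -3.29 (SE 0.45, adjusted p = 2.5e-06). In RG, ACP4 was at -0.81 from TS at S4, and at -1.55 (adjusted p = 0.0055) without TS S4 replicate 3.

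At S4 the member farthest from TS in size was a GDSL lipase in each seeded variety, with opposite signs. GDSL lipase 3 (VIT_09s0002g00580) had 3.80, 3.88 and 4.27 in RG and 7.57, 7.43 and 8.38 in IT at S4, against -2.40, -1.41 and 0.59 in TS. All seeded arrays lay above all TS arrays, by a mean log2 difference of 5.05 in RG (SE 0.91, adjusted p = 0.00017) and 8.87 in IT (SE 0.91, adjusted p = 3.1e-08). Its means in RG ran -2.32, -2.98, 0.63 and 3.98 from S1 to S4, and in IT 0.07, 0.32, 1.31 and 7.79, while in TS they lay between -2.05 and -0.71.

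Its neighbour by locus number, GDSL lipase 5 (VIT_09s0002g00490), went the opposite way. At S4 it was above background on 0 of 3 RG arrays and 0 of 3 IT arrays, and in TS it was at -3.23, -2.84 and -2.11, all above background. It was at least 10.6-fold lower in RG (adjusted p = 5.0e-07) and at least 9.88-fold lower in IT (adjusted p = 1.2e-06). The separation was present at S3, with -6.35, -5.49 and -7.48 in RG, against -1.70, -0.71 and -0.98 in TS (-5.31, SE 0.60, adjusted p = 1.6e-07), and IT differed by -4.85 (SE 0.60). At S1 the RG minus TS value was -0.07 (SE 0.60).

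The third neighbour, GDSL lipase 1 (VIT_09s0002g00540), stood above TS in RG at S1, by 2.95 (SE 0.57, adjusted p = 0.0013), and differed by 0.60 at S4, which did not pass. With the replicate block within the 6 arrays the S1 call was lost (adjusted p = 0.10). IT was below TS at S4 by -2.52 (SE 0.57, adjusted p = 0.0011). The probe sequences of the 3 neighbours were not analysed here.

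VIT_17s0000g10060 had the most negative difference of any member between RG and TS at S4. It had -6.31, -2.07 and -4.80 in RG and 0.04, -0.08 and 1.29 in IT at S4, against 1.66, 2.40 and 2.08 in TS. RG lay below both other varieties on every array, at -6.44 from TS (SE 0.69, adjusted p = 1.0e-07), and 2 of its 3 arrays were above background. IT was at -1.63 from TS (adjusted p = 0.07), and at -2.07 (adjusted p = 0.041) without IT S4 replicate 3. VIT_10s0003g00620 was on the lists of both early stages, and its RG minus TS values of -3.47 at S1 and -2.28 at S2 are a description. VIT_07s0005g04960, named after its values were seen, was at -5.52, -6.85 and -7.39 in RG at S3, against -2.05, -2.16 and -2.01 in TS, and was above background on no array of any variety at S4. Its difference at S3 was -4.52 (SE 0.55, adjusted p = 4.6e-07).

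**Figure D4:**
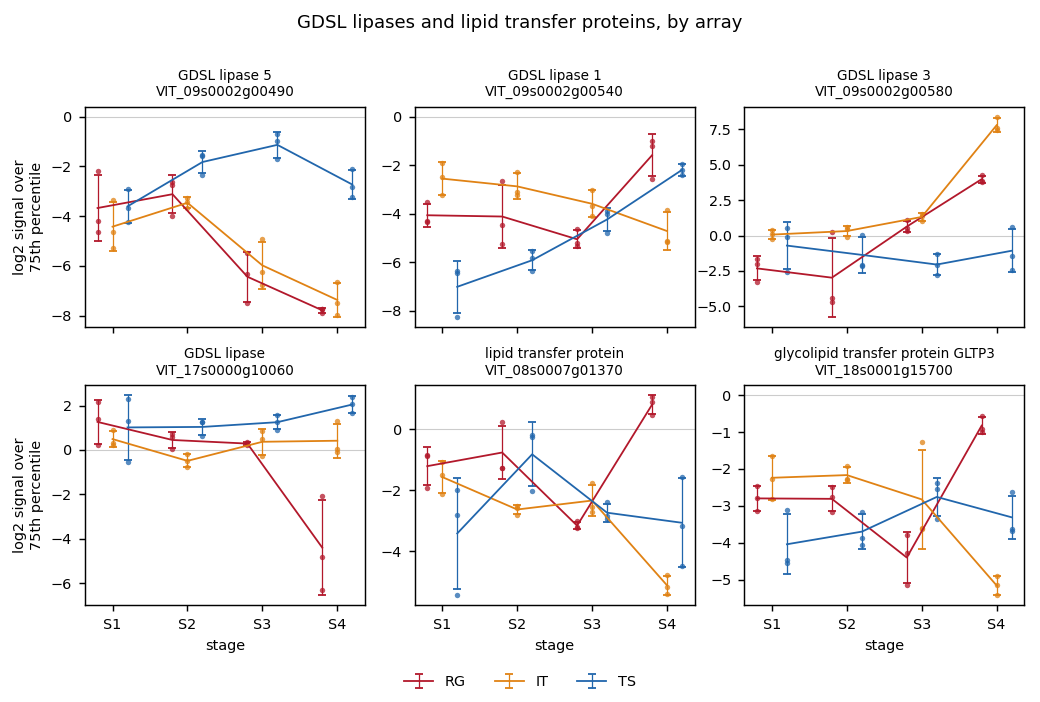
Log2 signal over the 75th percentile of 4 GDSL lipases and 2 lipid transfer proteins at each stage; points are arrays, lines join means and bars are SD (n = 3). GDSL lipase 3 reaches means of 3.98 in RG and 7.79 in IT at S4, GDSL lipase 5 is below background in both, and both transfer proteins are high in RG and low in IT.

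Of the genes grouped as lipid transfer proteins, 1 is a glycolipid transfer protein. Of the other 8, all but VIT_08s0058g01210 carry the joint label of protease inhibitor, seed storage or lipid transfer protein. That label does not say which of these a gene encodes. In the group, 2 genes were higher in RG and lower in IT than in TS at S4. VIT_08s0007g01370 had 0.45, 0.88 and 1.06 in RG and -4.77, -5.16 and -5.38 in IT at S4, against -4.46, -3.17 and -1.55 in TS. It was higher in RG by 3.86 (SE 0.66, adjusted p = 9.3e-05) and lower in IT by -2.04 (SE 0.66, adjusted p = 0.019), a call that was lost without IT S4 replicate 2 (-2.01, adjusted p = 0.051), IT S4 replicate 3 (-1.91, adjusted p = 0.055) or TS S4 replicate 3 (-1.29, adjusted p = 0.13). GLTP3 (VIT_18s0001g15700), which moves glycolipids between membranes, averaged -0.82 ± 0.23 in RG and -5.16 ± 0.27 in IT, against -3.31 ± 0.59 in TS (SD, n = 3 each). RG was above TS by 2.49 (SE 0.49, adjusted p = 0.00048) and IT below it by -1.85 (SE 0.49, adjusted p = 0.005), with no overlap in either case.

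Both seeded varieties had less of 2 other genes with the joint label at S4. VIT_11s0016g05840 had -3.67, -3.45 and -1.53 in RG and -1.70, -2.09 and -2.41 in IT, against -0.53, 0.78 and 0.60 in TS. The differences were -3.17 in RG (SE 0.47, adjusted p = 1.4e-05) and -2.35 in IT (SE 0.47, adjusted p = 0.00035). VIT_01s0011g06590 was lower by -2.51 in RG (SE 0.60, adjusted p = 0.0029) and by -3.14 in IT (SE 0.60). For RG the adjusted p was 0.081 with the replicate block within the 6 arrays, and 1 RG array overlapped with TS.

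Another pair are the neighbours VIT_02s0154g00310 and VIT_02s0154g00320. At S4 the first was 4.09, 3.91 and 4.46 in IT, against -2.10, 3.77 and -0.24 in TS, and higher in IT by 3.67 (SE 0.87, adjusted p = 0.0019). In RG it was at 1.28 from TS, and at 2.92 (adjusted p = 0.003) without TS S4 replicate 2. The second was not called in either variety with all arrays, at -0.37 in RG and -2.11 in IT, where it passed without IT S4 replicate 3 (-4.06, adjusted p = 0.026).

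Of the 6 phospholipases, 1 was higher (all probes 6.93%) and 1 lower (all probes 9.96%) in RG than in TS at S4. The phosphatidylglycerol-specific phospholipase C (VIT_06s0009g03350) had -1.03, -0.91 and -0.71 in RG, against -6.32, -1.22 and -4.90 in TS, of which 1 array was above background. The difference was 3.27 (SE 0.65, adjusted p = 0.00049), and the adjusted p was 0.12 with the replicate block within the 6 arrays. At S3, where the RG and TS list held it, it had 3.47, 3.68 and 3.99 in RG, against 1.39, 1.06 and 0.99 in TS, given as a description. The phospholipase/carboxylesterase VIT_09s0002g06010 was lower by -1.33 (SE 0.28, adjusted p = 0.00079), and by -0.95 without TS S4 replicate 3, which is under the size required.

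In IT 3 phospholipases were higher than in TS at S4 (all probes 15.9%) and 0 lower (all probes 13.3%). They were the phospholipase C at 2.50 (SE 0.65; 1.41 and not called, with an adjusted p of 0.067, without TS S4 replicate 1), the phospholipase A2 VIT_11s0103g00190, which frees a fatty acid from phospholipid, at 2.45 (SE 0.59), and the lysophospholipase homologue VIT_17s0000g01010 at 2.56 (SE 0.45). Phospholipase D alpha 1 (VIT_11s0016g05360), whose product is phosphatidic acid, was above background on 0 RG and 0 TS arrays at S4. VIT_14s0060g00920 differed from TS by 0.01 in RG and 0.12 in IT.

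None of the 7 other lipases was called between RG and TS at S4 (all probes 16.9%), and 3 were higher in IT (all probes 15.9%). The triacylglycerol lipase VIT_07s0031g00590, which cleaves storage oil, was lower in RG at S3, with -2.45, -2.63 and -2.63 in RG, against 0.24, 0.14 and 0.47 in TS (-2.85, SE 0.25, adjusted p = 1.7e-09). At S1 it was also lower, by -1.42 (SE 0.25, adjusted p = 0.00042), but not with the replicate block within the 6 arrays (adjusted p = 0.14). At S4 the difference was -0.92, short of the size required, and it was -1.04 without TS S4 replicate 3 and -1.10 without RG S4 replicate 2. The class 3 lipase VIT_07s0141g00360 was lower in RG at S3 by -1.87 (SE 0.67, adjusted p = 0.036), which did not pass without RG S3 replicate 1 or 2 or TS S3 replicate 1 or 3 (adjusted p from 0.075 to 0.14). The monoglyceride lipases VIT_13s0019g04260 and VIT_17s0000g01070 were higher in IT than in TS at S4, by 1.86 (SE 0.56) and 1.41 (SE 0.49), and differed by -0.73 and -1.15 in RG. Without IT S4 replicate 2 the IT values were 1.45 and 1.11 and neither passed (adjusted p = 0.083 and 0.14), and the second was also lost without IT S4 replicate 1 (1.02) or TS S4 replicate 2 (1.30) or 3 (1.36). The value of -1.15, of VIT_17s0000g01070, passed with the replicate block within the 6 arrays (adjusted p = 0.039).

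Both genes outside lipid metabolism proper were lower in RG at S4 (all probes 9.96%). The allene oxide cyclase VIT_14s0083g00110, which makes the jasmonate precursor, had -4.85, -3.63 and -6.42 in RG, 1 array above background, against -2.96, -1.75 and -1.25 in TS (-2.98, SE 0.74, adjusted p = 0.0044). The adjusted p was 0.078 with the replicate block within the 6 arrays. The zeta-carotene desaturase VIT_03s0038g02680 was lower in RG by -2.01 (SE 0.33, adjusted p = 5.4e-05) and in IT by -2.69 (SE 0.33, adjusted p = 5.4e-07), and in RG at S3 by -1.18 (SE 0.33), or by -0.99 and not called without RG S3 replicate 3 (adjusted p = 0.054).

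At S3, 43 members had been brought in by a list that used no S3 arrays. For RG against TS 19 were called (44.2%, all probes 23.6%), 4 higher (9.30%, all probes 9.49%) and 15 lower in RG (34.9%, all probes 14.1%), with a median of -0.42, against 0.00 over all probes. The 4 higher were all on the RG and TS list at S3 as well, which came from genes higher in RG. Without these 4 the counts were 0 higher and 15 lower of 39 (38.5%). Leaving them out removed members by their S3 values, so the counts of 0 and 15 are a description. Most members from the S2 list already had negative RG minus TS values at S2, as given above, and their part in the count at S3 was not tested. The count over all 43 was 12 without TS S3 replicate 2 and 11 without TS S3 replicate 3. In IT at S3, 14 of 43 were called (32.6%, all probes 33.8%), 2 higher (4.65%, all probes 20.5%) and 12 lower (27.9%, all probes 13.4%). Without the same 4 members it was 1 higher and 12 lower. The count over all 43 was 9 without IT S3 replicate 2, 8 without IT S3 replicate 3 and 9 without TS S3 replicate 3.

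The counts at the 2 earlier stages leave out members that only the list of the same stage had brought in. Those were listed because they differed then, so the counts do not say how many of all members differed. At S2, 2 of 48 were called between RG and TS, both lower (4.17%, all probes 4.96%, lower 3.02%), and the count ran from 0 to 4 when single arrays were left out. It was 0 without RG S2 replicate 1 or 2, 4 without RG S2 replicate 3 and 1 without TS S2 replicate 1 or 2. At S1, 5 of 65 were called, 1 higher (all probes 2.74%) and 4 lower (all probes 2.87%), together 7.69% against 5.61% of all probes. Without members that a list of the same stage also held, again listed for differing then, the counts were 1 of 40 at S2 and 3 of 63 at S1. With the replicate block within the 6 arrays the counts were 1 at S2 and 1 at S1.

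Between S1 and S4 the called members split differently by variety. Of 65 members that could be tested, 33 were called in RG (all probes 33.7%), 7 higher (10.8%, all probes 15.2%) and 26 lower at S4 (all probes 18.5%). In IT 38 were called (all probes 29.7%), 16 higher (24.6%) and 22 lower (33.8%, all probes 19%), where 2466 of all probes called in IT were higher and 4379 lower. In TS 28 were called (all probes 27.8%), 8 higher (12.3%, all probes 13.4%) and 20 lower (30.8%, all probes 14.5%). In IT the split was 18 and 18 after quantile normalization and 14 and 13 after normexp background correction. Without scaling it was 5 and 21 in IT and 1 and 20 in TS. The GDSL lipase VIT_04s0043g00620 was at least 318-fold lower at S4 in RG, where no S4 array was above background, and its log2 differences were -8.24 in IT and -7.64 in TS. Higher at S4 in all 3 varieties were the delta-7 desaturase (8.11 in RG, 6.79 in IT and 1.35 in TS), the acyl-CoA synthetase GSVIVT01033214001 (3.98, 3.99 and 1.94) and the thiolase VIT_05s0051g00720 (2.88, 2.01 and 1.47), in that order of varieties. The desaturase was also on the S1 list, so its values are a description.

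The change between S1 and S4 itself differed between RG and TS for 14 of 65 members (all probes 10.9%), with 5 positive (all probes 4.55%) and 9 negative (all probes 6.39%). After normexp background correction the split was 6 and 5. The largest were the delta-7 desaturase and GDSL lipase 3, whose changes were more positive in RG by 6.76 and 6.66, the first a description because the S1 list also held it, and the GDSL lipase VIT_17s0000g10060, at -6.69.

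RG and IT, both seeded, were also set against each other at S4. Of 70 members, 37 differed (52.9%, all probes 29.3%), 7 higher in RG (all probes 11.9%) and 30 lower in RG (42.9%, all probes 17.4%). The median was -0.99, against -0.23 over all probes. Lower in RG were 6 of 9 elongation genes, 5 of 6 desaturases and 3 of 4 tested genes of alkane and wax ester formation. These arrays shared no slide.

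Other genes of the pathway came from the study's own functional categories, 20 for fatty acid biosynthesis and 8 for glycerolipid or glycerophospholipid biosynthesis, none of them a member. For RG against TS at S4, 1 of the 20 was lower (all probes 9.96%) and 5 were higher (all probes 6.93%). Their median difference was 0.04, against -0.05 over all probes, and 0 of the 8 were called (all probes 16.9%). The 3 largest of the first list were VIT_06s0009g01930, a kinase subunit, at 2.71, the oxoacyl-ACP reductase VIT_08s0007g07520 at 1.88 and an acetyl-CoA carboxylase alpha subunit, VIT_15s0046g03340, at -1.75, which was not called. In IT, 7 of the 20 were higher than in TS at S4 (all probes 15.9%) and 0 lower (all probes 13.3%). The median was 0.55, against 0.16 over all probes. The acetyl-CoA carboxylase VIT_14s0108g01670, named after its values were seen, which makes the malonyl-CoA used in elongation, was higher by 3.16 in IT and by 1.07 in RG.

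Tissue marker probes were read beside these comparisons, and probes of the same list did not all move together. The summed signal of 3 ovule and seed coat probes at S4 was 62.4 to 76.1 times the 75th percentile in RG and 75.4 to 153 in IT, against 6.16 to 8.94 in TS. The RG minus TS difference of VviAGL11 was 4.16 on the log2 scale, ANR was at -0.06 and LAR1 at -2.48. The RG sum was mostly VviAGL11, at a mean log2 level of 5.99, against 1.34 for ANR and -4.07 for LAR1. VviAGL11 is also the gene whose allele differs between RG and TS, so tissue and allele cannot be told apart in its level. The sum of 3 seed storage protein probes was 21.4 to 87.7 in RG and 6.14 to 504 in IT, against 2.29 to 15.8 in TS. RG minus TS was 2.52 for the globulin-like probe, which was called. It was 2.31 for the legumin and -0.17 for the 11S globulin, which were not called. The sum of 6 berry flesh and skin probes, the tissue around the seed, was 37.2 to 119 in RG and 140 to 191 in IT, against 146 to 671 in TS. In RG 3 of the 6 were lower and the others were not called. Among these 3, the thaumatin GSVIVT01008423001 was not particular to berry tissue in these samples. Its means in pre-bloom ovules were 5.71 in RG and 5.16 in TS, against -6.60 and -2.22 at S4. The ASR2 probe made up most of this sum, with means of 5.98 in RG and 8.52 in TS. TS S4 replicate 3, without which several calls above changed, had the sum of 146, where the other TS arrays had 671 and 505. Its storage protein sum was also the lowest, at 2.29 against 15.8 and 8.32. Its ovule and seed coat sum was 8.47, against 6.16 and 8.94. The part of these tissues in the differences of the lipid genes was not tested.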

How the data were processed

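Ovules and developing seeds of RG, IT and TS at S1 to S4 were compared on 36 arrays, 3 per group, labelled as replicates 1 to 3. The authors deposited the scanner output with a processed intensity per spot, background-corrected by Feature Extraction (10.7.1.1 in the files), and a matrix of mean intensity for 22683 probes. Of the matrix values 99.1% lay within 0.1% of the unscaled intensity, so the 75 percentile step of the methods was applied here. Unflagged spots were averaged per probe (26564 kept of 26688), then centred on the 75th percentile of each array on the log2 scale. limma 3.58.1 in R 4.3.3 was fitted to all 36 arrays with Benjamini-Hochberg adjustment over 23068 probes. Precision is limited by the 3 arrays per group and, for dim probes, by background. Members and lists were chosen with earlier results of these data known.

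In role groups of 8 or fewer every member could be named, and in larger groups the 5 with the largest RG minus TS difference at S4 and their neighbours, unless stated. V1 locus names, available for 70 members, come from the study's tables. Same-numbered RG and TS arrays at S1, S2 and S4 deviated together (correlations from 0.48 to 0.80). They shared a slide at S1 and S4, and at S2 for replicates 2 and 3. At S3 they did not deviate together (-0.16 to 0.30), and there only those of replicate 1 shared a slide. Simulated arrays for RG against TS at S4, with 23068 probes, gave calls for 34 of 100 changes of log2 size 1.5 and 77 of 100 of size 3. At each size there were also 7 false calls. Alternatives were other scalings, filters, fits, blocks, the methods' t-test and each array left out. Python 3.11.15, pandas 2.3.3, NumPy 2.4.6 and matplotlib 3.10.9 were used.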

Additional observations from a re-analysis of the deposited data

Results flagged for a closer look

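The change between S1 and S4 differed between RG and TS, by the test of that difference, for 14 members, whose values are RG change minus TS change on the log2 scale. The 9 more negative in RG were the GDSL lipases VIT_17s0000g10060 (-6.69) and VIT_09s0002g00490 (-5.00), allene oxide cyclase (-4.52), long-chain acyl-CoA synthetase 2 (-3.83), the transfer protein VIT_11s0016g05840 (-3.42), the ketoacyl-CoA synthases VIT_04s0008g04710 (-2.83) and VIT_14s0006g02990 (-2.34), the carboxylesterase VIT_09s0002g06010 (-1.86) and the mitochondrial acyl carrier protein VIT_15s0021g00570 (-1.09, adjusted p = 0.0496). The 5 more positive in RG were the delta-7 desaturase (6.76), GDSL lipase 3 (6.66), the phosphatidylglycerol-specific phospholipase C (3.76), the acyl-CoA synthetase GSVIVT01033214001 (2.03) and the thiolase VIT_05s0051g00720 (1.41). GDSL lipase 5 (VIT_09s0002g00490) and VIT_04s0008g04710 were above background on 0 RG arrays at S4, so -5.00 and -2.83 depend on signal at background. Their RG levels were at least 5.51-fold and 72.4-fold lower at S4 than at S1. The desaturase was also on the S1 list, so its value is a description. The change of VIT_17s0000g10060 was -5.66 in RG and 1.03 in TS, and that of GDSL lipase 3 was 6.30 in RG and -0.36 in TS.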

How the results depend on the processing

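No call reversed its direction for the 57 members followed at S4 (RG against TS) in the limma fits that tested them. Of the 21 calls there, 9 were lost in at least 1 limma fit, and 11 members gained one. The methods' t-test after Benjamini-Hochberg lost 15 of the 21, and 13 were not tested when every array had to be above background. Of the 21, 7 were lost without scaling, 7 with only the arrays compared and 6 with normexp. The replicate block within the 6 arrays lost 4, and the unadjusted t-test also lost 4, so similar totals below can hide exchanged calls. Single arrays left out gave 20 to 22 called members for RG against TS at S4, 11 to 17 at S3, 0 to 4 at S2 and 4 to 6 at S1, and 8 to 12 for IT against TS at S3. Without scaling the counts were 7 at S3, 1 at S2 and 1 at S1 for RG against TS, 5 for IT against TS at S3, 23 for RG against IT and 6 for the difference of changes. Without scaling the median of all probes moved to -1.01 in RG, -0.65 in IT and -0.97 in TS for S4 against S1, and IT against TS at S4 split into 20 higher and 6 lower. With normexp the counts were 1 at S2 and 1 at S1, and with the percentile taken over probes above background 1 at S2. Restricting the fit to probes above background on all arrays left 8, 6, 0 and 0 (S4, S3, S2 and S1) for RG against TS, 17 and 4 (S4 and S3) for IT against TS, 19 for RG against IT, 12, 16 and 14 for S4 against S1 in RG, IT and TS, and 6 for the difference of changes; 30 members passed that filter. With only the arrays compared, limma called 0 at S2, 1 at S1, 17 for S4 against S1 in TS and 6 for the difference of changes. Slide as a random block gave 10 at S1, and as a fixed block 8 at S1 and 1 at S2. The replicate block within the 6 arrays gave 20 at S4, 1 at S2 and 1 at S1, and on all 36 arrays 21 at S4, 3 at S2 and 6 at S1. The methods' t-test after Benjamini-Hochberg gave 6, 0 and 0 for RG against TS at S4, S2 and S1, 12 for IT against TS and 13 for RG against IT at S4, and 11 for S4 against S1 in TS; unadjusted it gave 21 at S4, 3 at S2 and 6 at S1. It has no form for the difference of changes and was not run there. The cause of these shifts was not tested. Members near background at S4, 15 of 71 with no RG array above it, have only a bound there.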
